A study of Homo sapiens with 6 samples.

Results

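The early culture step is the change in gene expression between day 5 and day 10 after single clones of HCA-7 cells were seeded in type 1 collagen. HCA-7, a long-established line from a human colorectal cancer, forms either cystic colonies or colonies with spikes in such gels. The comparison used 4 of the 6 arrays of the series: the day 5 and day 10 arrays of the cystic clone (cc3) and of the spiky clone (sc1). The other 2 arrays, taken from the same clones at day 15, entered the fit to help estimate the spread and served for the comparison with the later step. Total RNA was taken from the middle layer of each gel, which held the cells, and hybridised to Affymetrix U133 Plus 2.0 arrays.

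The labels name no drug, transgene or added factor for any group. All 4 arrays share the line, the gel and the seeding, and differ in clone and day. Each colony shape is 1 clone, and each clone and day is 1 array, so every mean below has n = 2 arrays, 1 per clone. The labels do not say that the days of a clone were separate cultures. The p-values therefore speak only of the spread among these arrays, some of which may be technical, and with so few arrays every value is imprecise. In bulk RNA, fewer cells of a type and less RNA per cell cannot be told apart.

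Values are on the log2 scale of RMA, a method that combines the probes of a probe set into a single level. Levels of different genes come from different probes and are not compared with each other. Each gene is given by its brightest probe set, and 12317 genes with a mean of at least log2 5 over the 6 arrays were tested. Array medians of the 4 arrays were between 5.18 and 5.29. A sign of RNA quality is the log2 level of the 3' probe set of a gene minus that of its 5' probe set. For ACTB this difference was 2.83 and 3.18 at day 5 and day 10 in the cystic clone. In the spiky clone it was 2.73 and 2.74. For GAPDH it was 0.65 and 0.79 in the cystic clone and 0.6 and 0.63 in the spiky clone. The part of RNA quality in the results was not tested. Of 12 epithelial markers 10 were tested, EPCAM among them at 11.84, 11.86, 11.80 and 11.79 (cystic day 5, cystic day 10, spiky day 5, spiky day 10). Of 12 fibroblast markers 10 were under log2 5 on every array, and the median over the list was 3.40, 3.19, 3.38 and 3.60 in the same order. The leukocyte list (10 of 12 measured) had medians of 4.46, 4.27, 4.55 and 3.97, and the endothelial list (10 of 10 measured) 4.15, 3.99, 4.17 and 3.79. On the 4 arrays 6 of the measured leukocyte and 8 of the endothelial markers were under log2 5. LYZ, a secreted lysozyme also made by epithelium, was 9.11 and 9.56 in the cystic clone and 7.83 and 8.22 in the spiky clone.

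Several of the genes described below belong to signalling systems that respond to how a cell is fed, stretched and attached. The aryl hydrocarbon receptor is a ligand-activated transcription factor that pairs with ARNT, binds xenobiotic response elements and drives CYP1A1, CYP1B1 and TIPARP. In the gut its ligands include tryptophan and plant metabolites, and its target enzymes and its repressor AHRR limit the signal. YAP and TAZ are co-activators that enter the nucleus when cells spread and pull on a stiff support. There they bind TEAD factors at genes such as CCN1 and CCN2. Actin tension also releases MRTF co-activators, which act with serum response factor at CArG boxes of contractile genes. In intestinal epithelium YAP and actin tension are known for their part in attachment and wound closure.

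The promoters of 5 genes from these systems are shown, taken from genes that were lower, or whose lists were lower, at day 10 in both clones. Every window shown holds a match, so the 5 do not stand for the genes that were lower at large. Each sequence holds the 250 bases before the annotated start from the RefSeq promoter table of GRCh38.p14, written 5' to 3' on the strand of the gene. The windows are chr15:74725529-74725778 (minus strand) for CYP1A1, chr6:131951373-131951622 (minus strand) for CCN2 and chr15:39580829-39581078 (plus strand) for THBS1. Those of TGFB1I1 and CNN2 are chr16:31472955-31473204 and chr19:1026358-1026607, both on the plus strand. The TGFB1I1 window is the only 1 of its 3 in the table that holds a match. Capitals mark every match, on either strand, of GCGTG (the core of the xenobiotic response element), GGAATG (the TEAD motif) or the CArG box.
CYP1A1: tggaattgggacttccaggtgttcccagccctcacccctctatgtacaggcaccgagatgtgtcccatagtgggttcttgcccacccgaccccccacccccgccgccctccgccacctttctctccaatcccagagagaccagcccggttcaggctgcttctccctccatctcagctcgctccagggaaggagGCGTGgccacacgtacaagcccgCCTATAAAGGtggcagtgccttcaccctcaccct
CCN2: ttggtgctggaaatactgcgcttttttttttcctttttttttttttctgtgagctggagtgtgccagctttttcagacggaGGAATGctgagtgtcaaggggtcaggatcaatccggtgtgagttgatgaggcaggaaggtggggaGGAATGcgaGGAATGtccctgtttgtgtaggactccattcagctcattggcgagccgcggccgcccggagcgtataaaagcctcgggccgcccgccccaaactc
THBS1: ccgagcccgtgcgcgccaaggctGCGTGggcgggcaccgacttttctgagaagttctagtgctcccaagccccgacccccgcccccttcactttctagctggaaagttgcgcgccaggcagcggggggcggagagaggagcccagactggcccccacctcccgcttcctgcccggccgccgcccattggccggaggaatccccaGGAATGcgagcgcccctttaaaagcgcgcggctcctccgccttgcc
TGFB1I1: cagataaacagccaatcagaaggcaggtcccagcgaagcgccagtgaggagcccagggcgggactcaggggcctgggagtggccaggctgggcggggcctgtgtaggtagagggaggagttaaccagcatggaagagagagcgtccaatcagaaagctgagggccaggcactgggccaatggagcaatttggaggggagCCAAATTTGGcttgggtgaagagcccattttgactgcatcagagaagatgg
CNN2: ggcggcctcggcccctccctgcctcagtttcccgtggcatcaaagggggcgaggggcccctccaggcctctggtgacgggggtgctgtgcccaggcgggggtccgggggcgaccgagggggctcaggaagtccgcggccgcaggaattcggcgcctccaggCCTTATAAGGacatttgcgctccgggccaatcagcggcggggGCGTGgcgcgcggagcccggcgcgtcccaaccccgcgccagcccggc
GCGTG started 57 bases before the start of CYP1A1, and the capitals at 34 bases are a CArG match that lies over the TATA sequence. CCN2 held GGAATG at 169, 104 and 95 bases. THBS1 held GGAATG at 46 bases and GCGTG at 227 bases. The CArG box was found at 51 bases in TGFB1I1 and at 89 bases in CNN2, which also held GCGTG at 47 bases. Of 35116 windows of this length, 32.2% held GCGTG, 11.9% held GGAATG and 1.16% held a CArG box. Counted the same way by window, 8 of 15 windows of the aryl hydrocarbon receptor genes held GCGTG, 6 of 17 windows of the YAP and TEAD targets held GGAATG, and 3 of 26 windows of the cytoskeletal genes held a CArG box. These windows belong to 9, 13 and 15 genes, of which 5, 6 and 3 held a match. The aryl hydrocarbon receptor list and the YAP and TEAD list include known targets of these factors. A higher share of matches in them can follow from that choice alone. Whether a match goes with a change at the early step was not tested. A match is a description of letters and not a binding site.

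At the early step CYP1A1 fell and MROH1 rose in both clones, and these were the 2 genes that passed across all 6 arrays (0.0162% of tested genes, limma with Benjamini-Hochberg adjustment at 0.05). CYP1A1, which encodes a monooxygenase that oxidises aryl hydrocarbon receptor ligands, read 9.02 at day 5 and 6.38 at day 10 in the cystic clone, and 8.87 and 6.20 in the spiky clone. Both day 10 arrays were below both day 5 arrays, with no overlap. The fall was 6.30-fold, a log2 difference of -2.66 (SE 0.24, limma adjusted p = 0.0146). MROH1, a HEAT-repeat gene on chromosome 8 named for its likeness to maestro, read 7.02 and 8.74 in the cystic clone and 7.45 and 8.96 in the spiky clone. The groups did not overlap, and the rise was 3.07-fold, a log2 difference of 1.62 (SE 0.15, limma adjusted p = 0.0146). Another bright probe set of MROH1 gave 0.33 in the cystic and -0.19 in the spiky clone, so the rise belongs to 1 probe set, and the difference was 0.57 (limma adjusted p = 0.311) when its probe sets were averaged.

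Both calls rest on the day 5 arrays of each clone. Without the cystic day 5 array CYP1A1 had a limma adjusted p of 0.306 and MROH1 0.338. Without the spiky day 5 array both had 0.211. The count of called genes was 0 in either case, 9 without the cystic day 10 array, 3 without the spiky day 10 array, and 465 or 469 without the cystic or the spiky day 15 array. Unadjusted, 1658 of the 12317 genes had p under 0.05 with all 6 arrays.

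**Figure D1:**
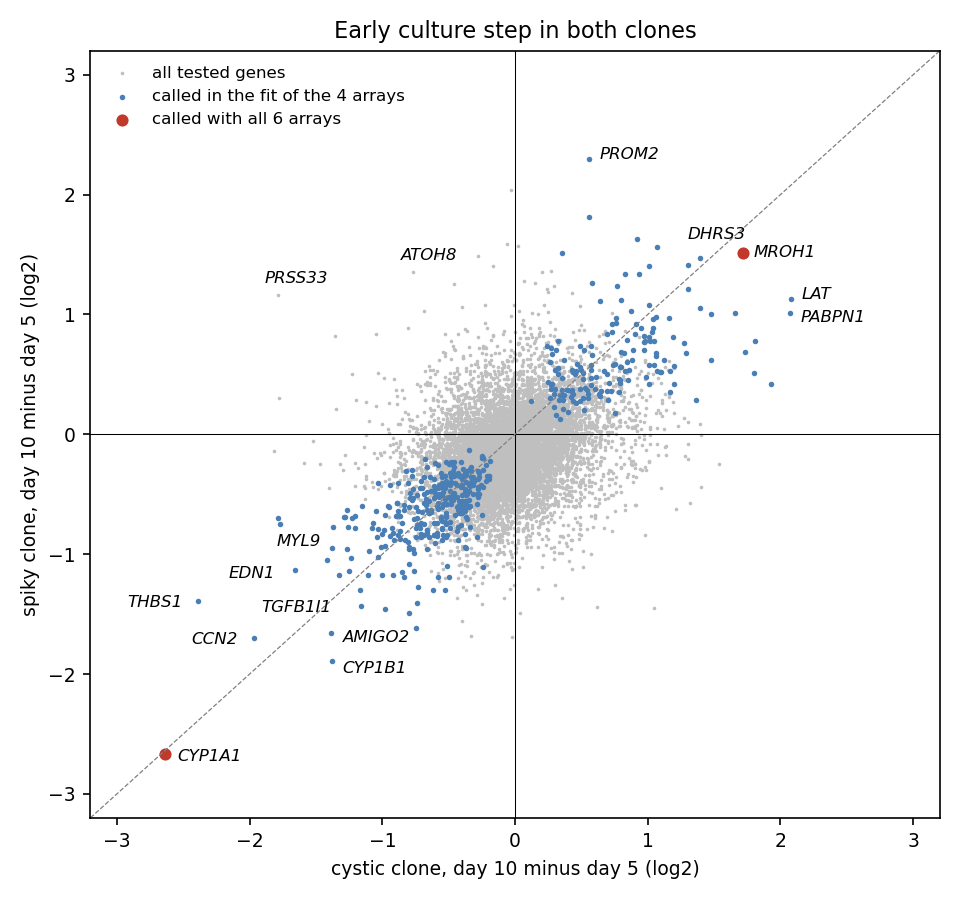
Each point is 1 tested gene, with the day 10 minus day 5 difference (log2) of the cystic clone on the horizontal axis and of the spiky clone on the vertical axis; the dashed line marks equal differences. CYP1A1 at the lower left (-2.64 and -2.67) and MROH1 at the upper right (1.72 and 1.51) passed with all 6 arrays (red). The 472 genes that passed in the fit of the 4 arrays (blue) have the same sign in both clones, because genes of opposite sign can hardly pass that fit.

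A fit of only the 4 arrays of day 5 and day 10, planned as an alternative, called 472 genes. Of these 158 were higher at day 10 (1.28% of tested genes) and 314 lower (2.55%). In all 472 both clones had the same sign. A gene's own residual in this fit is the gap between the clones' differences, so genes of opposite sign can hardly pass. The shared sign therefore largely follows from the test and is no separate sign that the clones agree. At least 2-fold differences were found for 28 of the higher and 29 of the lower genes. This fit has 1 residual degree of freedom, against 2 with all 6 arrays, and draws most of its spread from other genes. Its median moderated SD, which the p-values use, was 0.172, against 0.191 with all 6 arrays. The median residual SDs were 0.104 and 0.152, but with different degrees of freedom these 2 cannot be compared directly. The SD over genes of the gap between the clones' differences was 0.38 at the early step and 0.46 at the later step. The counts below are from the 4-array fit, since the fit with all 6 arrays called 1 gene each way, and they carry its dependence on a spread shared over genes. Every SE in the text is from the fit with all 6 arrays, also where the p-value beside it is from the 4-array fit. Such an SE and p-value do not belong together.

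The split between higher and lower turned with the scaling of the arrays. The median difference over all tested genes was -0.096 as deposited, 0.009 with arrays centred on their medians, -0.011 after quantile normalization and -0.007 after cyclic loess. The 4-array fit then called 932 higher and 448 lower with centring, 442 and 317 after quantile normalization, and 722 and 535 after cyclic loess. Values near -0.1 therefore lie at the level of the tested genes at large, and list medians below are to be read against -0.096. Of the tested genes 45.8% were lower and 19.6% higher at day 10 in both clones. The 2 clones' differences correlated at 0.38 (Pearson) across genes, which are not independent replicates. Counting by size alone, 79 genes (0.641%) were at least 1.5-fold higher in both clones and 159 (1.29%) at least 1.5-fold lower.

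The aryl hydrocarbon receptor axis, a list of target genes together with the receptor and its partners, had the lowest median of the 33 pathway lists. Of its 10 tested members, 5 passed as lower and 0 as higher in the 4-array fit, against 2.55% and 1.28% of all tested genes. The list's median was -0.66, and between -0.55 and -0.66 under the 4 scalings. CYP1B1, a related monooxygenase, read 7.06 and 5.68 (cystic day 5, day 10) and 7.84 and 5.95 (spiky), again without overlap. Its difference was -1.63 (SE 0.22, limma adjusted p = 0.0503 with all 6 arrays and 0.00122 in the 4-array fit), and its other bright probe set gave -2.03 and -2.75. NQO1, a quinone reductase, read 10.81 and 10.30 in the cystic and 10.80 and 9.70 in the spiky clone. TIPARP, an ADP-ribosyltransferase that represses the receptor, read 8.28 and 7.63, then 8.62 and 7.75. UGT1A6, a glucuronosyltransferase whose transcript shares exons with the other UGT1A genes, read 9.52 and 8.49, then 10.68 and 10.27.

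The differences of these 3 genes were -0.81, -0.76 and -0.72, with limma adjusted p between 0.00225 and 0.0168 in the 4-array fit and between 0.115 and 0.269 with all 6 arrays. The UGT1A6 arrays overlapped between days because the clones differed in level, while each clone was lower at day 10. AHRR, the receptor's repressor, was 6.60 and 6.21 in the cystic and 7.07 and 6.28 in the spiky clone, a difference of -0.59 that did not pass (limma adjusted p = 0.135 in the 4-array fit). The receptor and its partners had small differences that did not pass either. AHR itself was 8.08 and 8.37, then 8.30 and 8.41. ARNT differed by -0.07, and by 0.03 to 0.05 under the 3 other scalings and the mean over probe sets. The chaperone HSP90AB1 differed by -0.13, and by 0.04 with probe sets averaged. CYP1A2, the liver enzyme next to CYP1A1 on chromosome 15, was near the floor, from 5.04 to 5.35 on the 4 arrays. All 5 members that passed encode enzymes.

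**Figure D2:**
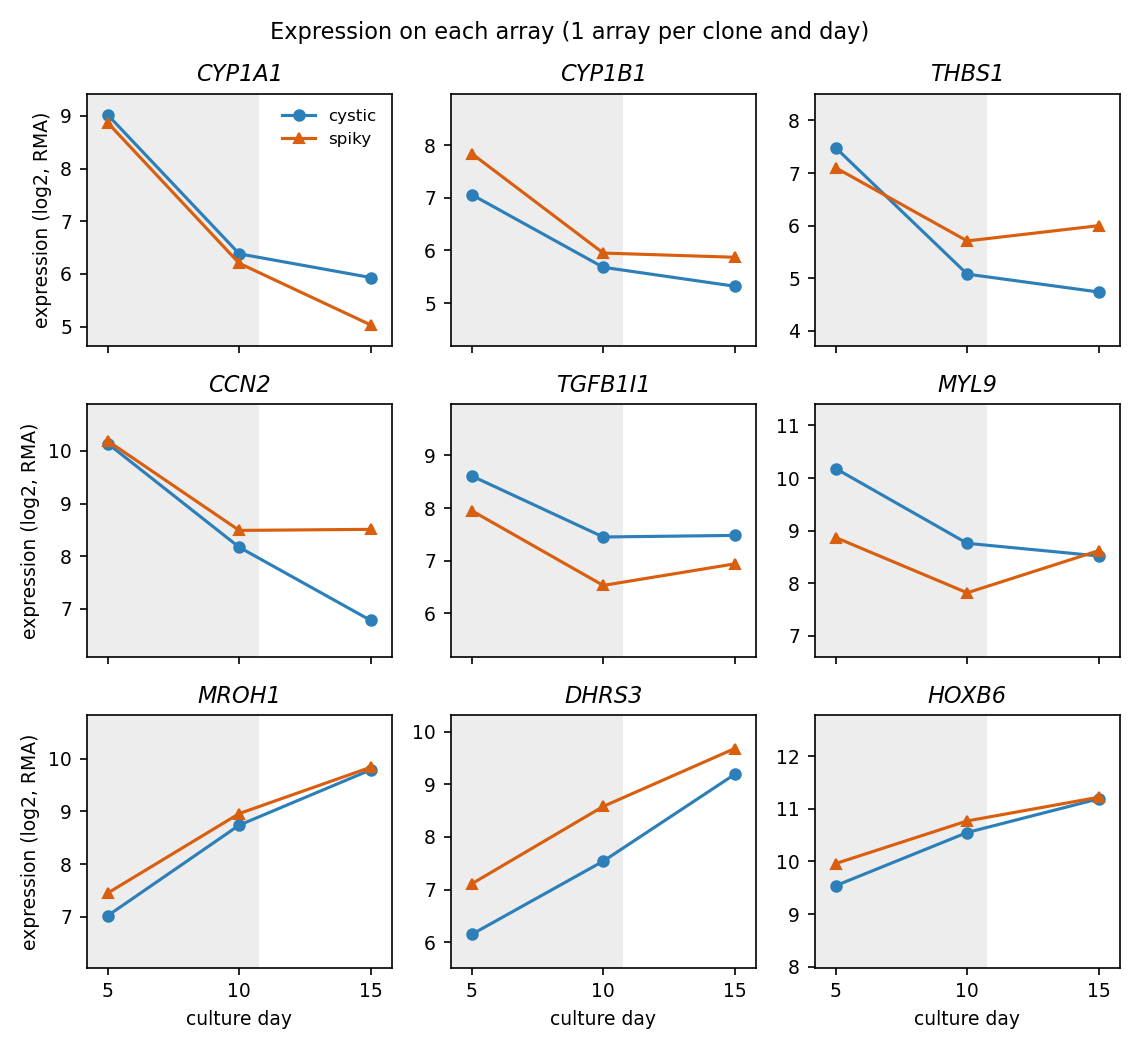
Log2 expression of 9 genes on each array by culture day, with circles for the cystic and triangles for the spiky clone; the early step is shaded, every panel spans the same number of log2 units, and there is 1 array per point. CYP1A1 goes from 9.02 and 8.87 to 6.38 and 6.20 over the early step, and DHRS3 from 6.15 and 7.11 to 7.54 and 8.58.

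Of 19 tested YAP and TEAD targets, 7 passed as lower and 0 as higher in the 4-array fit (2.55% and 1.28% of all tested genes), and none with all 6 arrays. Both clones were lower in 11 members and higher in 1, against 45.8% and 19.6% of tested genes. The list's median was -0.39, and between -0.28 and -0.39 under the 4 scalings. CCN2, a secreted matricellular protein, read 10.14 and 8.17 in the cystic and 10.19 and 8.49 in the spiky clone. The day 5 arrays were close to each other and well above both day 10 arrays. Its difference was -1.83 (SE 0.33), a 3.56-fold lower level, with limma adjusted p = 1.88e-06 in the 4-array fit and 0.108 with all 6. Its family member CCN1 read 7.97 and 7.04, then 8.53 and 7.37, a difference of -1.05 (SE 0.38).

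EDN1, which encodes the vasoactive peptide endothelin, read 7.79 and 6.13 in the cystic and 7.44 and 6.31 in the spiky clone, a difference of -1.39 (SE 0.33). F3, the tissue factor that starts blood clotting, read 10.66 and 9.94, then 11.31 and 10.53. AMOTL2 and LATS2, which restrain YAP in a feedback loop, differed by -0.67 and -0.54, and the membrane repair gene MYOF by -0.57. These 5 genes had limma adjusted p between 0.000287 and 0.0248 in the 4-array fit and between 0.173 and 0.384 with all 6 arrays. In LATS2 the clones' levels were apart, at 10.37 and 9.95 against 9.39 and 8.73, so its days overlap. THBS1, a matrix glycoprotein outside this list, read 7.48 and 5.08 in the cystic and 7.10 and 5.71 in the spiky clone, with no overlap. Its difference of -1.89 (SE 0.34) was second in size to CYP1A1 among genes lower in both clones, with limma adjusted p = 0.00127 in the 4-array fit and 0.108 with all 6. Its other bright probe set gave -1.64 and -0.37.

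Of 27 tested keratin and other cytoskeletal genes, 11 passed as lower and 0 as higher in the 4-array fit (2.55% and 1.28% of all tested genes). Both clones were lower in 20 members and higher in 0, against 45.8% and 19.6% of tested genes. The median was -0.25, and between -0.14 and -0.25 under the 4 scalings. MYL9, the regulatory light chain of contractile myosin, read 10.18 and 8.76 in the cystic and 8.87 and 7.82 in the spiky clone. The spiky day 5 array was only slightly above the cystic day 10 array, so the days are separated mainly within each clone. Its difference was -1.24 (SE 0.28; limma adjusted p = 0.000287 in the 4-array fit, 0.175 with all 6).

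Other parts of the contractile apparatus had smaller differences in the same direction. MYH9, the nonmuscle myosin heavy chain, read 9.34 and 8.68 in the cystic and 9.35 and 8.69 in the spiky clone, so the clones had almost the same levels at both days. ZYX, a focal adhesion protein, differed by -0.72, the calponin CNN2 by -0.58, and ACTN1 and TPM1, which cross-link and coat actin filaments, by -0.36 each. Of the 5 other bright probe sets of TPM1, 3 had a shared sign in both clones. TGFB1I1, an adhesion adaptor outside the list, read 8.61 and 7.45, then 7.95 and 6.53, a difference of -1.29 (SE 0.18; limma adjusted p = 0.00122 in the 4-array fit, 0.0708 with all 6). FLII, a gelsolin-family actin regulator, read 9.86 and 8.59, then 9.95 and 8.99. It was 2.16-fold lower (log2 -1.11, SE 0.14, limma adjusted p = 0.0503 with all 6 arrays), and its other 2 bright probe sets were lower in both clones too.

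The keratins of simple epithelium were lower by similar amounts. KRT18 read 12.79 and 12.09 in the cystic and 12.72 and 12.33 in the spiky clone, and its partner KRT8 10.23 and 9.52, then 10.01 and 9.56. KRT19 read 12.67 and 12.13, then 12.22 and 11.74. Their differences were -0.55, -0.58 and -0.51, with limma adjusted p of 0.000871, 0.00876 and 0.000312 in the 4-array fit and 0.0798 to 0.221 with all 6. VIL1, which bundles actin in microvilli, differed by -0.73, and KRT80 by -0.70. KRT13, a keratin of stratified epithelium, was at least 2.10-fold lower, with the spiky day 10 array under the floor at 4.65. KRT8, KRT18, KRT19 and VIL1 were the 4 of 10 tested epithelial markers that passed, all as lower (2.55% of all tested genes). EPCAM differed by 0.01 (SE 0.07), and E-cadherin (CDH1), which joins epithelial cells, by -0.09 (SE 0.14). The signs of EPCAM and CDH1 turned when single arrays were left out, and that of CDH1 also with arrays centred on their medians (0.01).

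Calls among cell attachment genes in the 4-array fit are to be read against 2.55% lower and 1.28% higher of all tested genes. LAMB3, a chain of the epithelial laminin, read 10.28 and 9.54 in the cystic and 9.81 and 8.94 in the spiky clone, a difference of -0.80 (SE 0.17; limma adjusted p = 0.00109 in the 4-array fit). It was the 1 called gene of 11 in the basement membrane list. PKP1, a desmosomal plaque protein, differed by -1.02 (SE 0.23) and was with CTNNA1 the called pair of 17 junction genes. Of 14 integrin genes, ITGB7 passed as higher, at 7.14 and 7.83, then 5.66 and 6.50. None of 24 tight junction and polarity genes passed. Among 22 matrix proteases and inhibitors MMP7, which encodes the epithelial matrilysin, was higher, at 8.08 and 9.12 in the cystic and 5.35 and 6.24 in the spiky clone (difference 0.96, SE 0.26; limma adjusted p = 0.0139 in the 4-array fit). CTSD, TIMP1 and MMP24 were the 3 called as lower, by -0.65, -0.45 and -0.87.

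**Figure D3:**
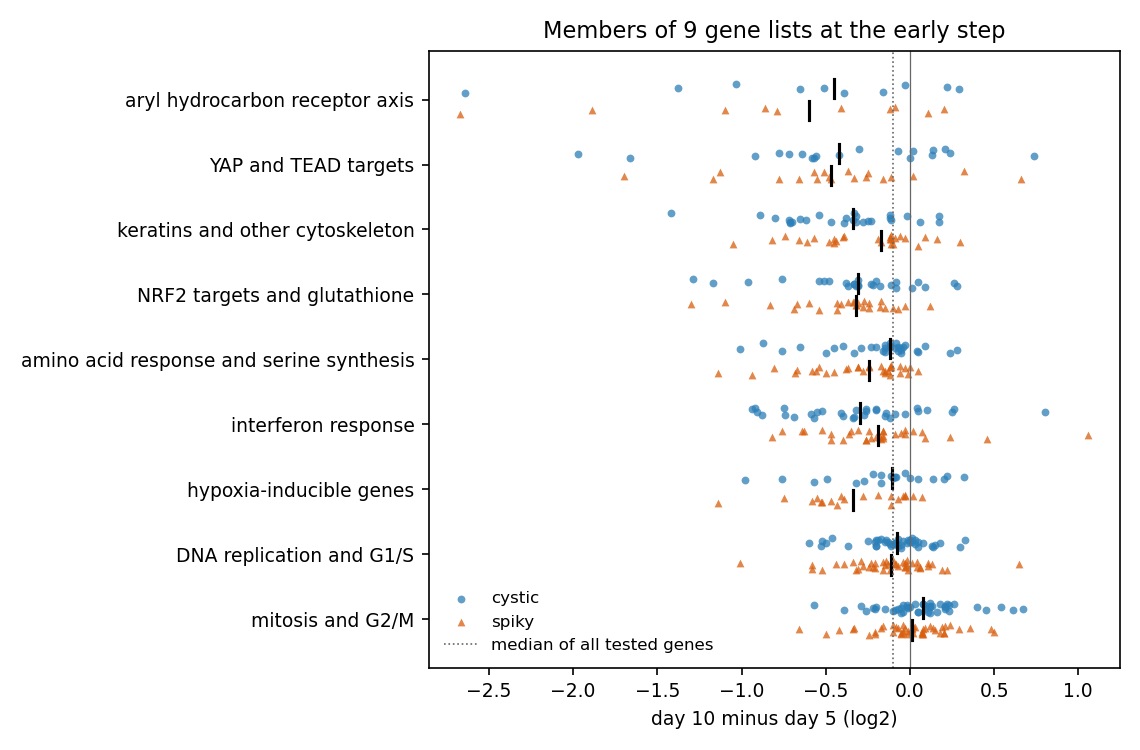
Day 10 minus day 5 differences (log2) of the tested members of 9 gene lists, with circles for the cystic and triangles for the spiky clone, a black bar at each clone's median and a dotted line at the median of all tested genes (-0.096); points are spread vertically only to be visible. The lists of the aryl hydrocarbon receptor, with medians of -0.45 (cystic) and -0.60 (spiky), and of YAP and TEAD targets, with -0.42 and -0.47, lie farthest to the left.

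NRF2 is the transcription factor that induces glutathione and quinone enzymes, and of its 27 tested targets 6 passed as lower and 0 as higher in the 4-array fit (2.55% and 1.28% of all tested genes), with a median of -0.27 (-0.16 to -0.27 under the 4 scalings). With arrays centred on their medians 1 member passed as higher, against 932 of the 12317 tested genes. GSTP1, a glutathione transferase, read 12.12 and 11.16 in the cystic and 11.88 and 11.28 in the spiky clone, without overlap (difference -0.78, SE 0.10, limma adjusted p = 0.0503 with all 6 arrays). GSTM4, another transferase, differed by -1.23 (SE 0.22), and HMOX1, the heme-degrading enzyme, read 7.33 and 6.04, then 7.26 and 6.57. GCLM and GSS, which make glutathione, differed by -0.61 and -0.35, and 1 of the other 2 bright probe sets of GCLM and 0 of 1 of GSS shared a sign in both clones. NQO1 belongs to this list and to that of the aryl hydrocarbon receptor. TRIM16, an E3 ligase outside the list, read 10.98 and 9.98 in the cystic and 10.81 and 9.98 in the spiky clone.

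The amino acid response is the ATF4 programme of transporters and synthesis enzymes. Of its 32 tested genes 26 were lower and 0 higher in both clones (45.8% and 19.6% of all tested genes), with a median of -0.20 (-0.09 to -0.20 under the 4 scalings), and 3 passed as lower in the 4-array fit (2.55% of all tested genes). SLC3A2, a subunit of amino acid exchangers, read 7.26 and 6.25 in the cystic and 7.18 and 6.24 in the spiky clone. The 2 day 5 arrays, and the 2 day 10 arrays, were nearly equal. STC2, a secreted glycoprotein, and TRIB3, a pseudokinase, differed by -0.95 and -0.84. These 3 differences had limma adjusted p between 0.00599 and 0.0383 in the 4-array fit and between 0.144 and 0.202 with all 6 arrays. None of 22 unfolded protein response chaperones passed as deposited. With arrays centred on their medians 5 were called higher, against 932 of the 12317 tested genes.

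Of 32 interferon response genes 3 passed as lower and 0 as higher in the 4-array fit (2.55% and 1.28% of all tested genes), with a median of -0.28 (-0.17 to -0.28 under the 4 scalings). They were ISG15, a ubiquitin-like modifier (9.17 and 8.43, then 8.54 and 7.79), ISG20, an RNA exonuclease, and IFI6, a mitochondrial protein, with differences of -0.75, -0.71 and -0.53. Of 32 immediate early and MAPK genes 4 passed as lower and 0 as higher, to be read against the same shares. They were the transcription factors KLF4 and KLF10 and the phosphatase DUSP4, by -0.76, -0.51 and -0.89, and the factor KLF2, which was at least 1.87-fold lower with both day 10 arrays under log2 5. Under the 3 other scalings 4 to 7 members were called lower and 0 to 3 higher. These scalings called 317 to 535 of the 12317 tested genes lower and 442 to 932 higher. FOS read 6.10 and 5.67 in the cystic but 5.88 and 6.27 in the spiky clone, so its days overlap and the clones differ in sign. EGR1 differed by 0.15 (SE 0.11) and MYC by 0.00 (SE 0.10), and neither passed.

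Of 24 chemokine and NF-kB genes 2 passed as higher and 2 as lower in the 4-array fit as deposited (1.28% and 2.55% of all tested genes). Under each of the 3 other scalings 6 passed as higher and 2 as lower. Over all 12317 tested genes these scalings called 442 to 932 higher and 317 to 535 lower. IL1A, the cytokine interleukin-1 alpha, was at least 1.78-fold higher, at 4.25 and 5.98 in the cystic and 5.12 and 5.81 in the spiky clone. NFKBIZ, a nuclear regulator of NF-kB, differed by 0.81 (SE 0.20). IL1RN, the antagonist of interleukin-1, differed by -0.61 (SE 0.16), and IL32, another cytokine, read 10.02 and 9.41, then 10.58 and 9.28. The limma adjusted p of these 4 lay between 0.00185 and 0.0462 in the 4-array fit and between 0.125 and 0.222 with all 6 arrays.

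Of the genes higher at day 10, DHRS3, a short-chain dehydrogenase that reduces retinaldehyde to retinol, read 6.15 and 7.54 in the cystic and 7.11 and 8.58 in the spiky clone. Each clone was higher at day 10 by nearly the same amount (1.39 and 1.47), and the mean difference was 1.43 (SE 0.19, limma adjusted p = 0.0503 with all 6 arrays and 0.00109 in the 4-array fit). Retinoid metabolism, with 14 tested genes, is a list added after the values were seen. In it DHRS3 was called higher and the retinal dehydrogenase ALDH1A3 lower (-0.37), against 1.28% and 2.55% of all tested genes. HOXB6, a homeobox gene of the B cluster on chromosome 17, read 9.54 and 10.55, then 9.96 and 10.77, a difference of 0.91 (SE 0.11, limma adjusted p = 0.0503). It was the 1 called of 21 tested HOX genes, also a later list, as deposited (1.28% of all tested genes were called higher). Under the 3 other scalings 3 or 4 HOX genes were called higher, against 442 to 932 of the 12317 tested genes. HOXB6 was measured by a further bright probe set. That probe set gave 0.38 and -0.11. A probe set that the platform's table assigns to MIR10A, the microRNA gene of the same cluster, read 6.46 and 8.12, then 7.18 and 8.19. It measures transcript from that locus and not the mature microRNA.

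LAT, a signalling adaptor best known from T cells, read 5.73 and 7.81 in the cystic and 7.10 and 8.23 in the spiky clone (difference 1.60, SE 0.26). Its other bright probe set gave 0.26 and 0.23. The leukocyte markers CD3D and CORO1A were tested and did not pass. PABPN1, a nuclear poly(A)-binding protein, read 5.13 and 7.20, then 5.77 and 6.78, and GABBR1, a GABA receptor subunit, 6.0 and 7.80, then 6.32 and 7.10. PROM2, a membrane protrusion protein, was at least 1.97-fold higher, but by 0.56 in the cystic and 2.30 in the spiky clone, and 0 of its other 2 bright probe sets shared a sign in both clones. RPS16P5 and GUSBP4 are pseudogenes whose probes may also detect their parent genes, and they differed by 1.35 and were at least 1.65-fold higher, respectively. RSKR, a kinase gene, was at least 2.02-fold higher. These 7 genes had limma adjusted p between 0.00187 and 0.0263 in the 4-array fit and between 0.0989 and 0.267 with all 6 arrays. LUC7L3, a splicing factor, differed by 0.67 (SE 0.09, limma adjusted p = 0.0503). GSTP1, TRIM16, FLII, DHRS3, HOXB6, LUC7L3 and CYP1B1 are the genes just outside the threshold with all 6 arrays, at 0.0503, a group chosen after its values were seen.

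Of the lower genes not yet described, AMIGO2, an adhesion protein, read 8.11 and 6.73 in the cystic and 5.68 and 4.02 in the spiky clone and was at least 2.04-fold lower. TENT5B, a poly(A) polymerase, read 7.54 and 6.21, then 7.63 and 6.47, and was 2.37-fold lower. PKP4-AS1, an antisense transcript, was at least 2.08-fold lower. The limma adjusted p of these 3 lay between 0.00256 and 0.0221 in the 4-array fit and between 0.144 and 0.173 with all 6 arrays.

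No tested gene of the mitotic and replication lists was at least 1.5-fold higher, or at least 1.5-fold lower, in both clones at day 10. Of 46 mitotic genes 22 were higher and 17 lower in both clones (19.6% and 45.8% of all tested genes). Of 44 replication genes 6 were higher and 25 lower in both clones. MKI67, the marker of cycling cells, read 9.71 and 9.94 in the cystic and 10.11 and 10.17 in the spiky clone, a difference of 0.15 (SE 0.15, limma adjusted p = 0.697). Of the mitotic genes ASPM and ECT2 passed as higher (0.47 and 0.55) in the 4-array fit and CDC20 and KIF2C as lower (-0.34 and -0.53). The shares of all tested genes were 1.28% and 2.55%, and the median of the mitotic list was 0.05. Every bright probe set of ASPM was higher in both clones. Another probe set of ECT2 gave 0.06 and -0.04, and another of KIF2C 0.16 and -0.22, in the cystic and spiky clone. With arrays centred on their medians 11 mitotic genes were called higher and 2 lower, against 932 and 448 of the 12317 tested genes. Of 44 replication genes MCM2, a subunit of the replicative helicase, passed as lower, by -0.55 (2.55% of all tested genes). As deposited, none passed in the lists of goblet cells (15 tested), ion and water transport (16), EGFR family and ligands (10), WNT targets (16), sterol synthesis (19), fatty acid synthesis (14), p53 targets (20), the prostaglandin pathway (13) and core histones (14). Under the 3 other scalings each of these lists had 0 to 3 genes called higher and 0 to 1 lower. Over the 12317 tested genes 442 to 932 were then called higher and 317 to 535 lower. In these lists a p that misses the threshold does not show that levels were equal. DKK4, a secreted WNT antagonist, read 6.56 and 6.99, then 4.45 and 5.63, and did not pass. BMP4, a bone morphogenetic protein, differed by -0.65 (SE 0.13) and was called lower in the 4-array fit. VCAN, a proteoglycan, was near the floor in the cystic clone (4.0 and 3.81) and read 8.72 and 9.15 in the spiky clone, so the gene was measured above the floor only in the spiky clone. KRT20 and LGR5 were under the filter.

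The early step differed from the later step, day 15 against day 10, in 130 genes, tested as a single contrast of the 3 days with all 6 arrays. The later step lay above the early step in 82 of them (0.666% of tested genes) and below it in 48 (0.39%). Both steps share the day 10 arrays, so an error in a day 10 array moves them in opposite directions, and no overlap of their gene lists is given. When 1 day 15 array is left out, the later step rests on 1 clone and the remaining day 15 array adds nothing to the spread. The count was 1 and 5 without the cystic or spiky day 5 array, 35 and 16 without a day 10 array, and 1842 and 857 without a day 15 array, in the same clone order.

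Hypoxia-inducible genes are switched on by HIF transcription factors when oxygen is low. Of 20 tested members 2 passed as lower at the early step in the 4-array fit (2.55% of all tested genes). They were STC2 and the glucose transporter SLC2A1. The list median was -0.26 at the early step and 1.55 at the later step. The difference between the steps passed in 10 of 20, all with the later step above (0.666% of all tested genes). SLC2A1 read 10.02, 9.53 and 10.76 at day 5, 10 and 15 in the cystic clone and 8.69, 8.22 and 9.84 in the spiky clone. Day 10 was the lowest of the 3 days in both. The steps differed by 1.91 (SE 0.24, limma adjusted p = 0.0176), although the other bright probe set of SLC2A1 gave early differences of 0.03 and -0.08. VEGFA, the angiogenic growth factor, read 7.57, 7.47 and 8.88, then 7.13, 6.38 and 8.87, an early difference of -0.43 (SE 0.25) that did not pass.

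Many glycolytic enzymes are targets of the same factors. Of 18 tested enzymes 5 passed as lower at the early step in the 4-array fit (2.55% of all tested genes). They were PFKP, ALDOA, PKM, GPI and GAPDH. The list medians of the early and the later step were -0.17 and 0.61. The other bright probe set of PKM gave 0.60 in the cystic and 0.02 in the spiky clone. PFKP read 10.76, 10.09 and 10.89 in the cystic and 11.57, 11.03 and 11.49 in the spiky clone. ALDOA read 11.51, 11.03 and 12.01, then 11.54, 11.23 and 12.28, and its steps differed by 1.40 (limma adjusted p = 0.0117). The difference passed in 7 of 18, all with the later step above (0.666% of all tested genes). Without the cystic or spiky day 5 array the counts were 1 and 2 of 20 hypoxia genes and 0 and 0 of 18 glycolysis genes. No more members of either list passed without a day 10 array, and more passed without a day 15 array. The later step then rests on 1 clone, and the count over all tested genes rose as well. The rise is therefore no sign that the calls are robust. With probe sets averaged the counts were 5 and 3, with no filter on dim genes 5 and 4, and without the intensity trend or without the clone block 0 and 0.

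The growth lists had early medians between -0.06 and 0.05, against -0.096 for all tested genes. The medians of the early and the later step were -0.06 and -0.72 for replication, 0.05 and -0.54 for mitosis, and -0.05 and -0.63 for ribosome biogenesis. The later step was called below the early one in 3 of 44, 4 of 46 and 3 of 28 members (0.39% of all tested genes). The aryl hydrocarbon receptor list had the opposite order of size, with medians of -0.66 and -0.06, and the difference between steps passed in 0 of 10. CYP1A1 read 5.93 and 5.03 at day 15, close to the floor of log2 5, which limits how far its later step could fall. The steps of CYP1A1 differed by 1.85 (SE 0.41), with a limma adjusted p of 0.0673. For the YAP and TEAD list, with medians of -0.39 and -0.06, it passed in 1 of 19. At day 15 CCN2 was 6.78 in the cystic and 8.51 in the spiky clone, so the clones separated after day 10.

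**Figure D4:**
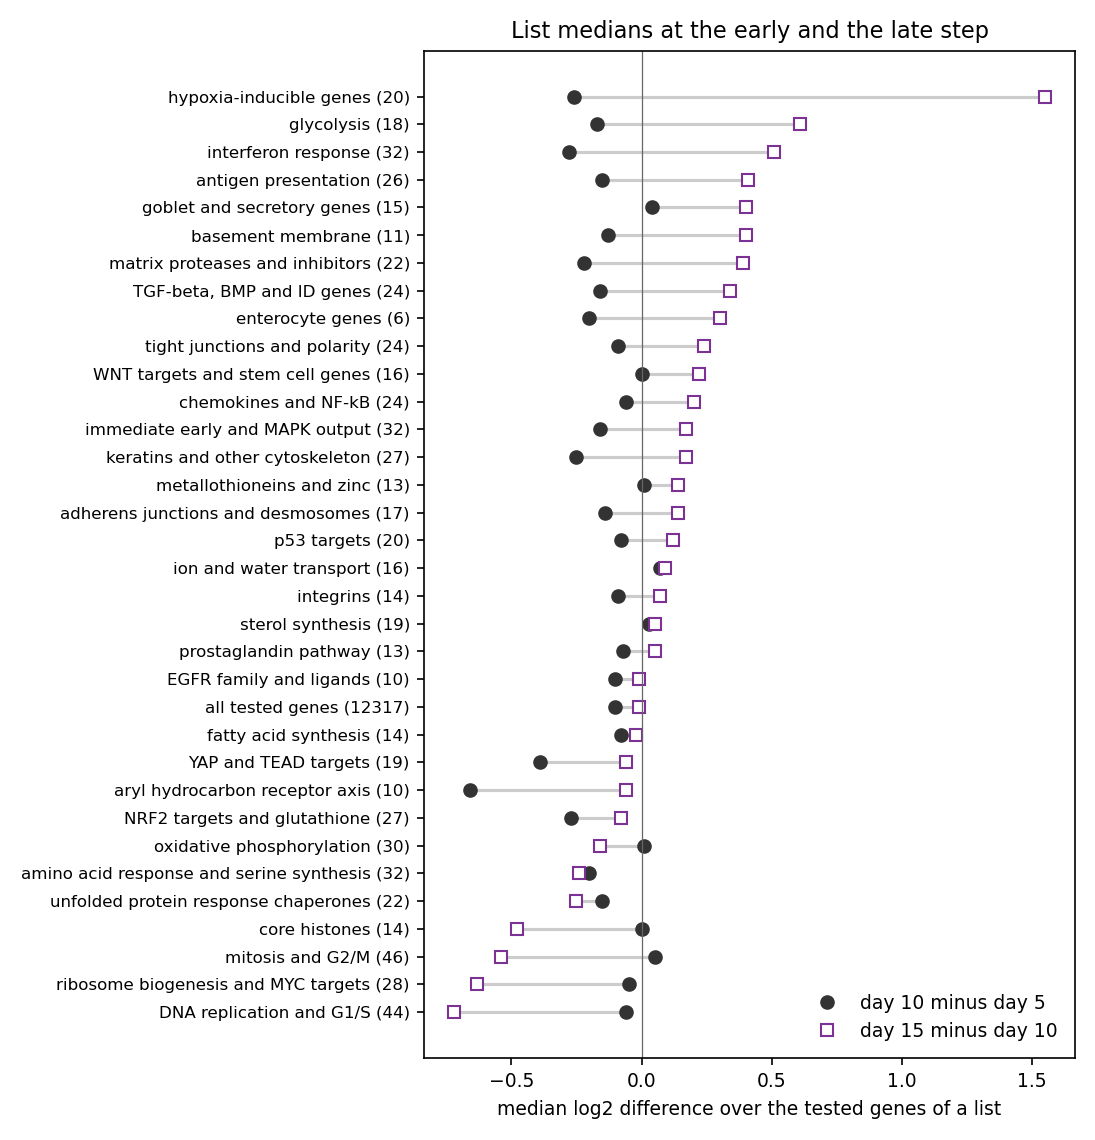
Median log2 difference over the tested genes of the 33 pathway lists and of all tested genes, with filled circles for day 10 minus day 5 and open squares for day 15 minus day 10; the number of tested genes is in parentheses, and both steps share the day 10 arrays. The early medians run from -0.66 (aryl hydrocarbon receptor axis) to 0.07 (ion and water transport), and the later ones from -0.72 (DNA replication) to 1.55 (hypoxia-inducible genes).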

How the data were processed

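The deposited values are log2 levels that the authors made with RMA, as the submitters' processing notes state. The RMA version was not given in the sources used here. Biotin-labelled cRNA was made from total RNA, per the labels' protocols. Of 54675 probe sets 41097 had 1 gene symbol in the platform's table, 1801 several and 11777 none, and 41043 were matched to RefSeq genes of GRCh38.p14 through their gene IDs. Of 12317 tested genes 922 are read by a probe set of the type (_x_at) that can detect related genes. Deposited values were not normalized again.

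Each gene was fitted with limma 3.58.1 in R 4.3.3, with culture day as a factor and the clone as a block, which pairs the arrays of a clone by the design, with intensity-trended variances. Two-sided p-values were adjusted by Benjamini-Hochberg over all tested genes, at a threshold of 0.05. A fold is a lower bound ("at least") where an array of the dimmer day lay under log2 5, with such arrays set to 5. Simulated data had 200 of 12317 genes changed between day 5 and day 10. On them the fit of all days recovered 8.96%, 59.7% and 98.5% of changes of log2 0.5, 1 and 2, with 2.63% false calls. These shares hold for the simulated noise, and the real arrays may depart from it. The fit of only the day 5 and day 10 arrays was not simulated, so the shares do not apply to its counts.

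Genes were named by rule: the 10 largest differences of shared sign in each direction (under 5 passed), the extremes of each list, the 6 highest and lowest called differences between steps, the 6 largest opposite differences of the clones, and 15 fixed genes. The other members of a list that passed in the 4-array fit, the remaining aryl hydrocarbon receptor genes, LYZ, FLII, TRIM16, LUC7L3 and HOXB6 were added after their values were seen. The comparison, its members and the lists were chosen with earlier results of these data known. Alternatives covered the filter, probe set choice, scaling, variance prior, arrays used and the clone block, and the 4-array fit was repeated under other settings after seeing the data. Figures were drawn with matplotlib 3.10.9.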

Additional observations from a re-analysis of the deposited data

Results flagged for a closer look

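The test of the later against the early step was passed by 130 genes. Among genes named by rule, those with the later step above the early one (log2, as fitted) were DKK4 (3.63), a secreted WNT antagonist, LMNTD2-AS1 (3.62), TGM2 (3.52), a transglutaminase read by an _x_at probe set, APCDD1 (3.46), a WNT inhibitor, DDIT4 (3.37), a stress-induced inhibitor of mTORC1, and NDRG1 (3.25), a hypoxia-responsive gene. Arrays under log2 5 make some of these inexact and give them no order. With such arrays set to 5 the values were 3.90 for DKK4, 2.89 for LMNTD2-AS1, 3.34 for TGM2 and 1.89 for APCDD1, and LMNTD2-AS1 and APCDD1 were under log2 5 on all 4 arrays of the early step. DKK4 read 6.56, 6.99 and 11.36 at day 5, 10 and 15 in the cystic and 4.45, 5.63 and 10.13 in the spiky clone. NDRG1 read 9.33, 9.16 and 12.08, then 9.69, 9.16 and 12.02. Those with the later step below were CXCL8 (-2.72), a neutrophil chemokine, FANCB (-1.81), STEAP1 (-1.73), RRP15 (-1.72), LNCAROD (-1.72) and TAF1D (-1.63). CXCL8 read 9.18, 10.25 and 7.48, then 7.12, 7.17 and 5.64. Most of these 12 genes no longer passed without a day 5 array of either clone, and fewer passed without a day 10 array. All still passed without a day 15 array. The later step then rests on 1 clone and far more genes pass at large, so this is no sign of robustness.

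In 55 genes the clones moved in opposite directions between day 5 and day 10 by over log2 0.5 each, a difference that was not tested because each clone has 1 array per day. Named by rule, the spiky minus cystic changes were those of PRSS33 (2.96), SH3PXD2A-AS1 (2.18), ATOH8 (2.12), MUC3 (2.08), SLC25A45 (-2.50) and NEURL3 (-2.05). With arrays under log2 5 set to 5 they were 1.63 for PRSS33, 1.0 for SH3PXD2A-AS1, -1.92 for SLC25A45 and -1.20 for NEURL3, while ATOH8 and MUC3 had no such array at either day. ATOH8, a helix-loop-helix transcription factor, read 5.92 and 5.15 in the cystic and 6.07 and 7.43 in the spiky clone, and its other bright probe set gave 0.31 and 0.32. PRSS33, a serine protease, read 6.37 and 4.58, then 4.09 and 5.25.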

How the results depend on the processing

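Of 1621 values of 103 gene results under 16 settings, 1600 kept their sign. Many of these genes were named for large or called differences, and all settings reuse these arrays. A kept sign is therefore no independent support. CYP1A1 passed in 11 of 16 settings and MROH1 in 10 of 16. The counts of genes called (higher, lower) between day 5 and day 10 were 0 (0, 0) with no filter on dim genes, 19 (10, 9) at a mean of at least 6, 1 (0, 1) with probe sets averaged, 5 (4, 1) with arrays centred on their median, 0 (0, 0) with no intensity trend, 11 (4, 7) with a robust prior and 472 (158, 314) with only the 4 arrays. Leaving out single arrays gave 0 to 469 called, 0 to 168 higher and 0 to 302 lower. Without the clone as a replicate block 0 genes were called, with 737 at an unadjusted p under 0.05. The counts of genes whose steps differ were, in that order without the 4-array and robust fits, 17, 312, 43, 632 and 0, then 72 after quantile normalization, 55 after cyclic loess, 0 without the replicate block, and 1 to 1842 with single arrays left out. No such count exists for the 4 arrays, which hold no later step.

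The 4-array fit called 113 (46, 67) with no filter, 812 (251, 561) at a mean of at least 6, 183 (54, 129) with probe sets averaged, 1380 (932, 448) centred, 759 (442, 317) after quantile normalization, 1257 (722, 535) after cyclic loess, and 0 (0, 0) without the intensity trend or without the replicate block. No array can be left out of it. The causes of these shifts were not tested.

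Signs turned for ARNT (0.05 with probe sets averaged, 0.03 centred, 0.04 quantile, 0.03 cyclic loess), HSP90AB1 (0.04 averaged), FOS (0.08 centred, 0.09 quantile, 0.12 cyclic loess), EGR1 (-0.02 averaged) and CDH1 (0.01 centred). With single arrays left out, values ranged from -0.50 to 0.46 for FOS, -0.04 to 0.34 for EGR1, -0.13 to 0.14 for MYC, -0.86 to 0.00 for VEGFA, -0.05 to 0.34 for MKI67, -0.28 to 0.10 for CDH1, -0.03 to 0.05 for EPCAM and -0.21 to 0.44 for VCAN.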
